A study of Homo sapiens with 6 samples.

Results

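The genes described here are 10 feedback inhibitors of MAP kinase signalling: 6 dual specificity phosphatases (DUSP1, DUSP4, DUSP5, DUSP6, DUSP8 and DUSP10), 3 Sprouty genes (SPRY1, SPRY2 and SPRY4) and SPRED1. They were taken by symbol from the 34234 gene symbols of the count table, and all 10 passed the filter on low counts, which left 17935 genes. RNA was sequenced after poly-A selection in 6 libraries of HCCLM3, a human hepatocellular carcinoma cell line. Of these, 3 came from cells given a lentivirus with a control short hairpin RNA (shcontrol) and 3 from cells given one with a hairpin against ATXN7L3 (shATXN7L3), an adaptor of the histone H2B deubiquitinase module of the SAGA coactivator. The labels name 1 hairpin treatment against this gene and do not say whether the libraries of a group were separate cultures, and the p-values below therefore refer to the scatter of these 6 libraries, which may be no more than technical.

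Growth factor receptors signal through RAS, RAF and MEK to the kinase ERK, and stress signals reach the related kinases JNK and p38. Active MAP kinases induce their own inhibitors. The DUSP proteins of this group are MAP kinase phosphatases, which remove phosphate from both the threonine and the tyrosine of the activation loop. Sprouty and SPRED proteins act further upstream and dampen the passage from receptor to RAS and RAF, and SPRED proteins do so by recruiting the RAS GTPase activator neurofibromin. Because ERK activity drives transcription of several of these genes, their mRNAs are often read beside it. No protein or phosphorylation was measured here.

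Libraries held 22376867 to 23915783 counts, and 21.7% to 22.9% of them came from mitochondrially encoded genes. ATXN7L3 stood at 36.4, 37.5 and 37.5 CPM (counts per 1e+06 counts, TMM-scaled) in shcontrol and at 20.6, 20.5 and 19.5 in shATXN7L3, or 54.5% of the control level (95% interval 50.2% to 59.1%, edgeR adjusted p = 6.69e-10). Of 10 hepatocyte and hepatoma markers, 9 were tested and all 9 fell (median log2 fold change -0.70, edgeR adjusted p under 0.05). Over all tested genes 12.0% fell. The summed level of the 9 was 1976 to 2152 CPM in shcontrol and 1727 to 1874 in shATXN7L3. Most of that sum was the keratin gene KRT8 (1652 ± 94.9 and 1480 ± 78.9 CPM), whose groups overlapped. ALB went from 65.2 ± 1.69 to 24.1 ± 1.15 CPM. The untested marker, APOA1, had 2 to 12 counts per library. Markers of other cell types were low in part. The fibroblast markers COL1A1, COL3A1, DCN, ACTA2 and PDGFRB had at most 9 counts in any library, although LUM fell from 25.6 to 5.22 CPM. Of 6 endothelial markers 2 were tested (summed 57.0 to 61.8 CPM in shcontrol and 42.2 to 44.1 in shATXN7L3): PECAM1, at 43.7 ± 3.26 CPM in shcontrol and 28.0 ± 0.726 in shATXN7L3, was lower (adjusted p = 1.37e-07 by edgeR), and KDR stood at 15.5 ± 2.63 and 15.3 ± 0.259. VWF, CDH5, TEK and CLDN5 had at most 9 counts. Of 6 leukocyte markers 3 were tested (summed 91.0 to 110.4 and 121.0 to 126.3 CPM). CD68, nearly all of that sum, rose (0.28, adjusted p = 0.00153), LYZ fell (-2.42, adjusted p = 1.47e-04, 2 to 26 counts per library) and CD79A did not pass (0.01). PTPRC, CD3E and CD14 had at most 10 counts. The part of these markers in the results below was not tested.

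The start regions of SPRY1 and SPRY4, which changed, and of 2 members that carry a cAMP response element, are shown. ERK activity is known to drive transcription of several of the 10 genes, and whether it acts through these regions was not tested. The RefSeq promoter table used here (GRCh38.p14) gave start sites for 8 of the 10 genes, and DUSP4 and DUSP5 were not searched. Windows of 250 bases before each start were searched on both strands for the cAMP response element TGACGTCA, the AP-1 site TGANTCA, the ETS core CCGGAA, the GC box GGGCGG, the TATA box TATAAA and the CArG box of serum response factor. Below, matches are in capitals, and bases that lie in annotated exons are left out. The first SPRY1 start lies at the end of chr4:123396545-123396794 (plus strand). The SPRY4 start in that table lies inside the deposited span of the gene, and 80 bases free of exons, 250 to 171 bases before that start, are shown at chr5:142324418-142324497 (minus strand). The DUSP1 window is chr5:172771196-172771445 and the DUSP8 window chr11:1572272-1572521, both on the minus strand.
SPRY1: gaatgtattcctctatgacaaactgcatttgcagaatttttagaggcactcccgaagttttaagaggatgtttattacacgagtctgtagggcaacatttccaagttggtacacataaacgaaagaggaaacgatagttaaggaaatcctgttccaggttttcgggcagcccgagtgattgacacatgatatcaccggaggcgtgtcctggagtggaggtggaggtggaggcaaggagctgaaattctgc
SPRY4: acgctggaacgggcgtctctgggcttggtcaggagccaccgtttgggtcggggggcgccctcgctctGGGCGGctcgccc
DUSP1: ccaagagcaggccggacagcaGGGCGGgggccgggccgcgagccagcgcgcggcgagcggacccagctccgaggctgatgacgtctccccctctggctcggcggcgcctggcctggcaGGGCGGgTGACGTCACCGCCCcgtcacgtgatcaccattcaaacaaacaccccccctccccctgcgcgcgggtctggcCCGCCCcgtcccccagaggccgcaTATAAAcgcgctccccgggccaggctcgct
DUSP8: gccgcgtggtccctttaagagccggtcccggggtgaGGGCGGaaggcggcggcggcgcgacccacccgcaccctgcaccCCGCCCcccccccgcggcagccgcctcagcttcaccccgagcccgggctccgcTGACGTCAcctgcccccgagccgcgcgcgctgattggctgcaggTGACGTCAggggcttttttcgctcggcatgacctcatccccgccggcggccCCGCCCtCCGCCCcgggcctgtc
The DUSP8 window holds the cAMP response element at 2 places, beginning 118 and 74 bases before the start. In DUSP1 it begins 125 bases before the start, between 2 GC boxes, and a TATA box begins 30 bases before the start. Of the 12 start windows of the 8 genes, 2 held the cAMP response element (16.7%), compared with 1.65% of all 35114 windows. Those of DUSP1 and DUSP8 were 74.4% and 76.8% GC, beside a median of 58.0% over all windows. The 12 windows ranged from 41.2% GC (a SPRY2 start) to 78.4% (SPRED1). The part of GC content in the shares given here was not tested. All 12 were searched whole, with their exon bases. The windows of DUSP6, SPRED1 and the second SPRY1 start lie wholly in annotated exons. Those of SPRY4 (170 bases) and the second DUSP10 start (87 bases) do so in part. The ETS core was in 2 of 12 (16.7%, against 14.5%), in SPRY1 at its second start and in SPRY2, and the GC box in 8 of 12 (66.7%, against 42.6%). The AP-1 site and the CArG box were in 0 of 12 (6.57% and 1.16% of all windows), which says only that these letters are not in these windows. Windows of 1 gene share their locus and are not independent, and a match is a description of the letters.

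In the control libraries the members ranged widely in level. Per kilobase of exon, DUSP5 was highest at 27.4 ± 1.41 CPM per kb (SD, n = 3), above 91.9% of tested genes. SPRY4 (10.7 ± 0.532) and DUSP6 (10.7 ± 0.456) followed, and their control libraries overlapped, so their order is not set. DUSP6 also shares 40.5% of its exonic length with a gene on the opposite strand, so its level is uncertain. DUSP4 (8.53 ± 0.0478), SPRED1 (7.51 ± 0.0691), SPRY1 (3.71 ± 0.434) and DUSP1 (2.33 ± 0.279) came next, each apart from its neighbours in every control library. DUSP10 (1.53 ± 0.225) and SPRY2 (1.27 ± 0.0959) overlapped. DUSP8 was lowest (0.476 ± 0.061), above 12.6% of tested genes, with 38 to 53 counts in any of the 6 libraries. In shATXN7L3 DUSP5 was still first at 18.2 ± 0.626 CPM per kb, SPRY4 (8.08 ± 0.397) stood below DUSP6 and DUSP4, and SPRY2 (1.53 ± 0.211) and DUSP10 (1.31 ± 0.104) again overlapped.

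Of the 10 members, 2 fell, DUSP5 and SPRY4, and 2 rose, DUSP4 and SPRY1 (edgeR quasi-likelihood test, Benjamini-Hochberg adjusted p under 0.05 over all tested genes). Among all tested genes 24.2% passed, 12.2% higher and 12.0% lower, beside which the 4 of 10 members are to be read. The median log2 fold change of the 10 was -0.10 and the median of its absolute value 0.22, beside 0.01 and 0.14 over all tested genes. Groups did not overlap in 5 of 10 members, the 4 that passed and SPRED1 (2 higher and 3 lower), compared with 38.3% of tested genes (19.8% higher and 18.4% lower). The 2 that rose are less firm than the 2 that fell: both missed the threshold with DESeq2, which called 0 members higher and 2 lower where it called 16.8% of all tested genes. Summed over the 10 genes, levels were 345, 344 and 328 CPM in shcontrol and 307, 305 and 305 in shATXN7L3, so the groups did not overlap. The falls of DUSP5, from 71.5 to 47.6 CPM on average, and of SPRY4, from 63.7 to 47.9, together exceed the difference between these sums.

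**Figure D1:**
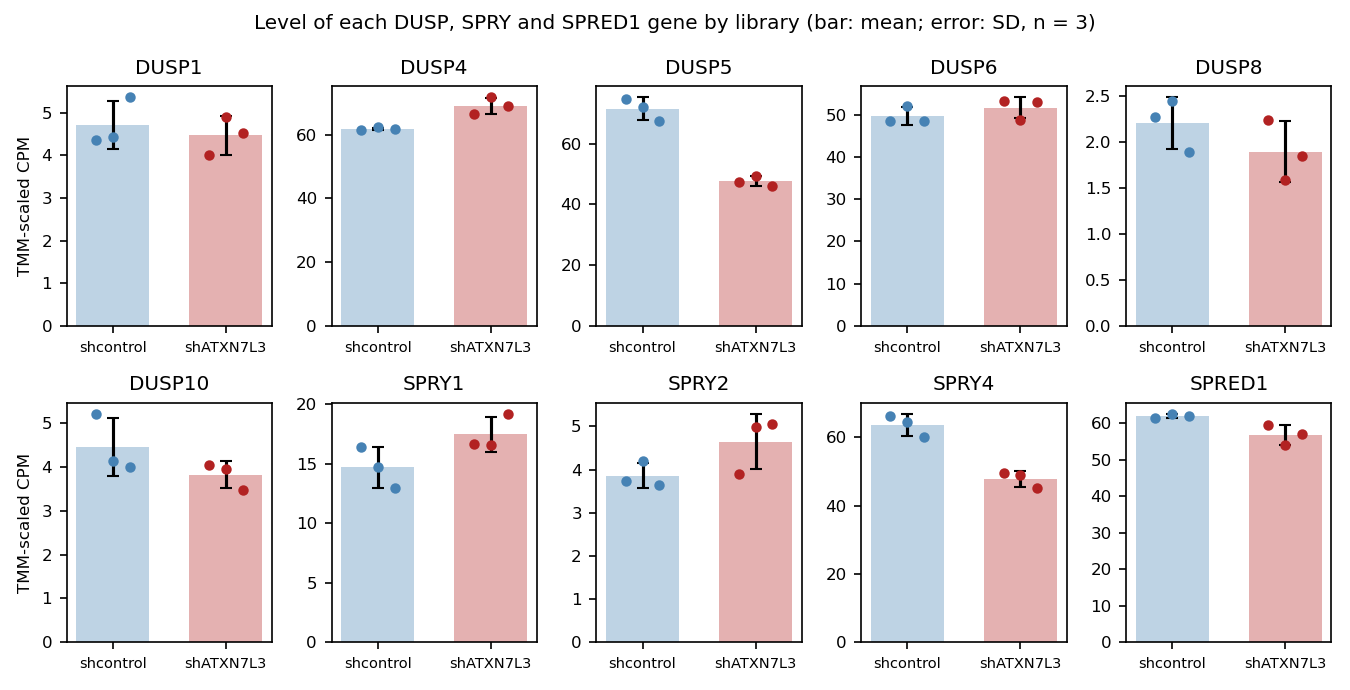
Level of each of the 10 genes in TMM-scaled CPM (y axes start at 0 and differ between panels) by group. Points are libraries, bars means and error bars SD (n = 3). DUSP5 and SPRY4 are lower in all 3 shATXN7L3 libraries, DUSP4 and SPRY1 higher, and DUSP6 overlaps.

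DUSP5 is a nuclear phosphatase that acts selectively on ERK. The gene lies on chromosome 10 from 110497838 to 110511544 (plus strand). It had 74.8, 72.2 and 67.5 CPM in shcontrol and 47.4, 49.3 and 46.1 in shATXN7L3. Every shATXN7L3 library lay well below the lowest control. The log2 fold change was -0.59 ± 0.052 (SE, edgeR adjusted p = 7.06e-08), which left 66.6% of the control level (95% interval 61.7% to 71.8%). The size of this change exceeded that of 92.9% of tested genes. It passed under all 14 alternatives (scalings, filters, tests, replicate block, each library left out), with values from -0.63 to -0.54. Of the 13 tested genes that start within 1 Mb of DUSP5, 5 rose and 0 fell (median log2 fold change 0.21). That share of 38.5% is to be read beside 24.2% of all tested genes. It was higher around DUSP10 (50.0% of 14 genes, 3 rose and 4 fell) and DUSP8 (40.9% of 44, 3 rose and 15 fell). Around SPRY1 it was 40.0% of 5 genes (1 rose and 1 fell), and around each of the other members it was lower.

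DUSP4 is an inducible nuclear phosphatase that acts on ERK, JNK and p38. The gene lies on chromosome 8 from 29333064 to 29350668 (minus strand). It had 61.6, 62.3 and 61.8 CPM in shcontrol and 66.5, 71.7 and 69.0 in shATXN7L3. The control libraries were close together, and all shATXN7L3 libraries lay above them. The rise was small, 0.16 ± 0.047 on the log2 scale or 112% of control (95% interval 104% to 119%, edgeR adjusted p = 0.0196). The adjusted p was 0.0588 with DESeq2, 0.115 without shATXN7L3 replicate 2 and 0.0675 without shATXN7L3 replicate 3.

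DUSP1, the founding member of the family, is an immediate early nuclear phosphatase with a preference for p38 and JNK beside ERK. It lies on chromosome 5 from 172768090 to 172771195 (minus strand), next to the promoter letters shown above. It was low, with 4.36, 4.42 and 5.36 CPM in shcontrol and 4.0, 4.89 and 4.52 in shATXN7L3, and the groups overlapped. The log2 fold change of -0.08 had a 95% interval from -0.34 to 0.19 (edgeR adjusted p = 0.726), so levels from 78.8% to 114% of control lie within its error. Of the 15 tested genes that start within 1 Mb of it, in the distal part of chromosome 5q, 5 fell and 0 rose (median log2 fold change -0.17). That is a share of 33.3%, beside 24.2% of all tested genes.

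DUSP6, the cytoplasmic phosphatase selective for ERK and a common readout of its activity, did not pass. It lies on chromosome 12 from 89347232 to 89353271 (minus strand). It had 48.5, 52.1 and 48.4 CPM in shcontrol and 53.1, 48.8 and 52.9 in shATXN7L3. The groups overlapped, and the log2 fold change of 0.05 ± 0.053 had a 95% interval from -0.06 to 0.17 (edgeR adjusted p = 0.512). It was 0.09 without shcontrol replicate 2 or shATXN7L3 replicate 2. That interval lies wholly above the interval of DUSP5, from -0.70 to -0.48. DUSP6 overlaps 1875 exon bases (40.5% of its exonic length) of a clone-named gene on the opposite strand, which had 187 to 233 counts per library. Whether strand was used in counting is not given in the sources used here, so reads of that stretch cannot be told apart.

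DUSP8 and DUSP10 dephosphorylate JNK and p38 rather than ERK. DUSP8 lies on chromosome 11 from 1554044 to 1571920 (minus strand), and had 2.27, 2.44 and 1.89 CPM in shcontrol and 2.24, 1.58 and 1.84 in shATXN7L3. DUSP10 lies on chromosome 1 from 221701424 to 221742176 (minus strand), and had 5.20, 4.14 and 4.0 CPM in shcontrol and 4.04, 3.94 and 3.47 in shATXN7L3. Groups overlapped in both genes. Log2 fold changes were -0.22 (95% interval -0.61 to 0.16, edgeR adjusted p = 0.428) for DUSP8 and -0.22 (-0.50 to 0.06, adjusted p = 0.267) for DUSP10. A loss as large as that of DUSP5 lies inside the DUSP8 interval. Single libraries moved both values: DUSP8 was at -0.36 without shATXN7L3 replicate 1, -0.11 without shATXN7L3 replicate 2 and -0.14 without shcontrol replicate 2, and DUSP10 was at -0.09 without shcontrol replicate 1.

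SPRY4, a Sprouty protein that restrains RAS and RAF activation and is itself induced by ERK, fell. It lies on chromosome 5 from 142310427 to 142326455 (minus strand). It had 66.3, 64.5 and 60.2 CPM in shcontrol and 49.6, 48.9 and 45.2 in shATXN7L3. All shATXN7L3 libraries lay below all controls. On the log2 scale the change was -0.41 ± 0.054 (edgeR adjusted p = 1.07e-05), which left 75.3% of the control level (95% interval 69.6% to 81.3%). It passed under the same 14 alternatives, with values from -0.45 to -0.37. Of the 39 tested genes that start within 1 Mb, 2 rose and 2 fell (10.3%, beside 24.2% of all tested genes).

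SPRY1, a Sprouty gene whose loss is known to raise receptor tyrosine kinase signalling in development, rose. It lies on chromosome 4 from 123396795 to 123403760 (plus strand). It had 16.4, 14.7 and 13.0 CPM in shcontrol and 16.7, 16.6 and 19.2 in shATXN7L3. The groups were separated by a narrow margin: the highest control came close to the 2 lower shATXN7L3 libraries. The log2 fold change was 0.25 ± 0.085 (edgeR adjusted p = 0.035), or 119% of control (95% interval 105% to 135%). The adjusted p was 0.1 with DESeq2, and it was 0.0845 without shcontrol replicate 2, 0.157 without shcontrol replicate 3 and 0.206 without shATXN7L3 replicate 3. Its log2 fold change was 0.17 without shcontrol replicate 3, 0.18 without shATXN7L3 replicate 3 and 0.26 without shcontrol replicate 2.

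SPRY2, which lies on chromosome 13 from 80335976 to 80340951 (minus strand) and is known for binding the ubiquitin ligase CBL, was low and did not pass. It had 3.73, 4.19 and 3.65 CPM in shcontrol and 3.91, 4.98 and 5.06 in shATXN7L3, where 1 library fell within the controls. The log2 fold change of 0.27 was as large as that of SPRY1, but its 95% interval ran from -0.01 to 0.55 (edgeR adjusted p = 0.153). SPRED1, which brings neurofibromin to the membrane, lies on chromosome 15 from 38252326 to 38357249 (plus strand). It had 61.4, 62.5 and 62.1 CPM in shcontrol and 59.5, 54.0 and 57.2 in shATXN7L3. The groups did not overlap, yet the log2 fold change was -0.12 (95% interval -0.23 to -0.02) and missed the threshold after adjustment (edgeR adjusted p = 0.0753).

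**Figure D2:**
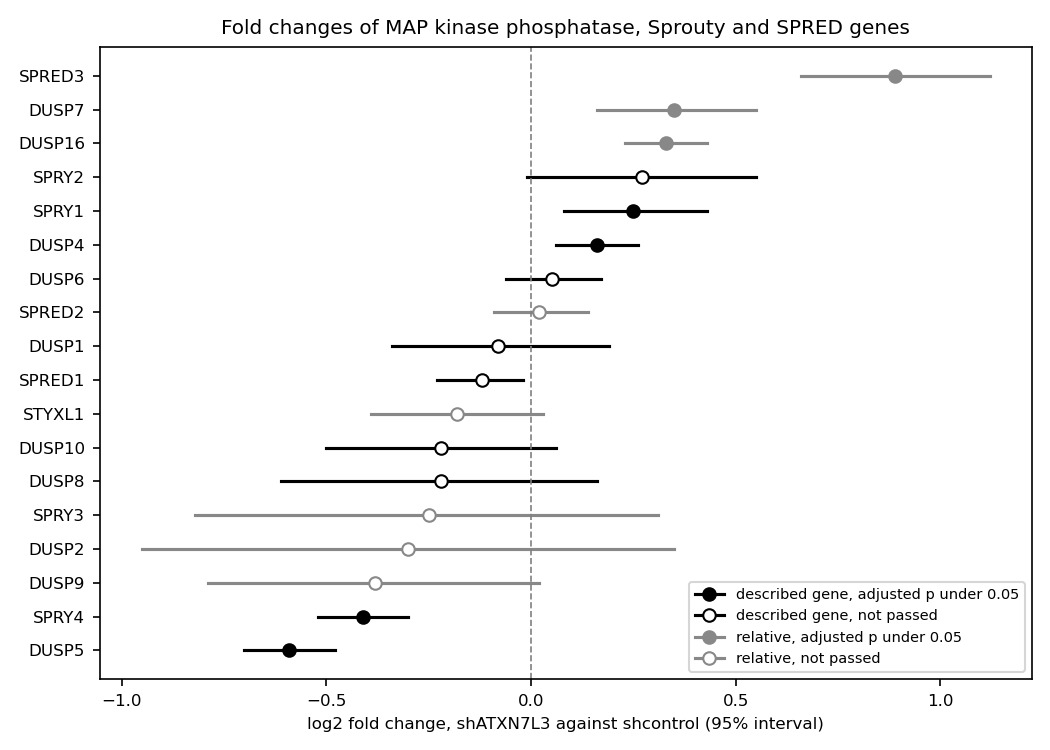
Log2 fold change (x axis) of the 10 genes (black) and their relatives (grey), with 95% intervals from edgeR. Filled points passed an adjusted p of 0.05. DUSP5 (-0.59) and SPRY4 (-0.41) are at the low end, SPRED3 (0.89) at the high end.

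For 3 pairs of members, count ratios within each library are given, which do not depend on scaling between libraries. The pairs were chosen after the values were seen, each with 1 member that fell, so the ratios describe these libraries and no test of them is reported. The denominators DUSP4 and SPRY1 were members that rose, so the lower ratios follow from the choice and restate the fold changes above. There were 1.22, 1.16 and 1.09 DUSP5 counts per DUSP4 count in shcontrol and 0.713, 0.688 and 0.668 in shATXN7L3. DUSP5 gave more counts than DUSP4 in every control library and fewer in every shATXN7L3 library. These counts are not corrected for exonic length, which is 2615 bases in DUSP5 and 7257 in DUSP4. Per kilobase of exon, DUSP5 stayed above DUSP4 and DUSP6 in shATXN7L3 (18.2 against 9.51 and 11.1 CPM per kb). The DUSP5 to DUSP6 ratio was 1.54, 1.39 and 1.39 in shcontrol and 0.894, 1.01 and 0.871 in shATXN7L3. SPRY4 to SPRY1 went from 4.05, 4.38 and 4.64 to 2.97, 2.95 and 2.36. The log2 differences were -0.74, -0.64 and -0.67. Leaving out any 1 library moved these differences within -0.78 to -0.71, -0.71 to -0.59 and -0.72 to -0.56.

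**Figure D3:**
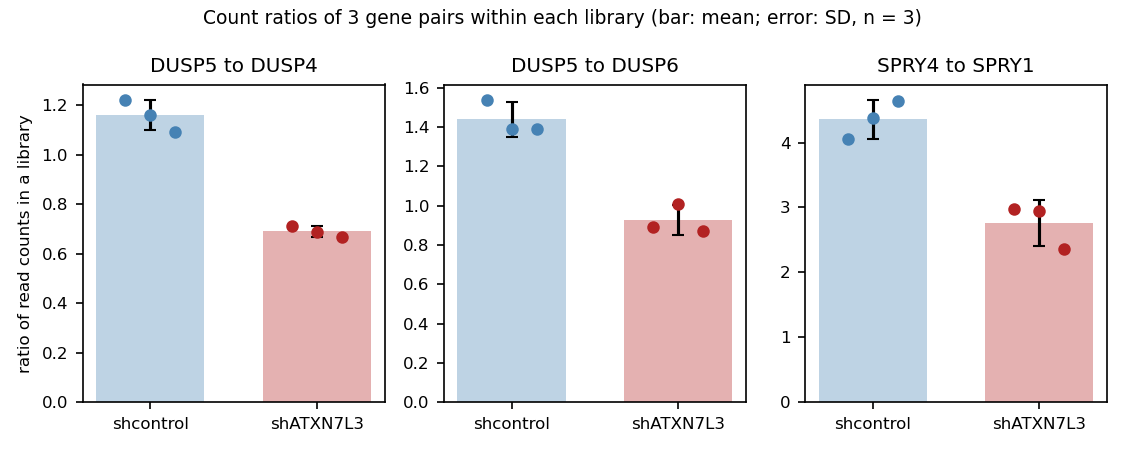
Ratio of read counts of 2 genes within a library (y axis, from 0) for 3 pairs. Points are libraries, bars means and error bars SD (n = 3). All 3 ratios are lower in every shATXN7L3 library than in any control library, with group means of 1.16 and 0.690 for DUSP5 to DUSP4. Counts are not corrected for exonic length.

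Relatives outside the 10 genes also moved. Of 5 further MAP kinase phosphatase genes tested, 2 rose and 0 fell (40.0% beside the background of 24.2%). DUSP16, which acts on JNK and p38, had 54.3, 55.6 and 58.4 CPM in shcontrol and 71.4, 72.0 and 68.5 in shATXN7L3, a rise of 0.33 ± 0.049 on the log2 scale (edgeR adjusted p = 4.09e-05). DUSP7, a cytoplasmic phosphatase of ERK like DUSP6, rose from 8.18 ± 0.878 to 10.4 ± 0.337 CPM (0.35 ± 0.092, edgeR adjusted p = 0.00805). DUSP9 (-0.38, 95% interval -0.79 to 0.02), DUSP2 (-0.30, -0.95 to 0.35) and the pseudophosphatase gene STYXL1 (-0.18, -0.39 to 0.03) did not pass. Their values also rested on single libraries: DUSP2 was at -0.07 without shcontrol replicate 1 and -0.48 without shcontrol replicate 3, DUSP9 at -0.23 without shATXN7L3 replicate 1, and STYXL1 at -0.28 and -0.11 without shATXN7L3 replicates 1 and 2. Of SPRY3, SPRED2 and SPRED3, 1 rose (33.3% beside the same background). SPRED3 had 5.69, 4.56 and 5.49 CPM in shcontrol and 9.94, 8.63 and 10.7 in shATXN7L3. Its rise was 0.89 ± 0.11 on the log2 scale (edgeR adjusted p = 5.59e-06). SPRED2 stood at 39.0 ± 1.42 and 39.7 ± 1.51 CPM (95% interval of the log2 fold change -0.09 to 0.14), and SPRY3 at 1.49 ± 0.662 and 1.25 ± 0.237 CPM. The 3 SPRED genes thus had log2 fold changes of -0.12, 0.02 and 0.89.

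In the cascade these proteins restrain, the changes that passed were small. Of 19 tested genes of the cascade from adaptors to ERK and RSK, 3 rose and 3 fell (median log2 fold change 0.03), a share of 31.6% beside the background of 24.2%. The GTPase gene NRAS rose from 28.5 ± 1.39 to 35.7 ± 2.27 CPM (edgeR adjusted p = 4.87e-04) and MAP2K1, which encodes MEK1, from 52.1 ± 2.80 to 62.1 ± 3.52 CPM (adjusted p = 0.0019). Exons of opposite-strand genes overlap 11.5% and 5.75% of the exonic length of MAP2K1. The RAS exchange factor SOS1 (-0.23, adjusted p = 0.0205) and the docking protein GAB1 (-0.23, adjusted p = 0.0211) fell. Both lost the call without shcontrol replicate 3 (0.109 and 0.1) and without shATXN7L3 replicates 2 (0.101 and 0.098) or 3 (0.0531 and 0.0611), and when scaled to library size only (0.0854 and 0.0775). SOS1 also lost it without shATXN7L3 replicate 1 (0.0581) and GAB1 with DESeq2 (0.0666). The log2 fold change of SOS1 was -0.11 without shcontrol replicate 3, whose 76.8 CPM stood above the other controls at 61.0 and 60.9. MAPK3, an ERK gene chosen for mention after its values were seen, had a 95% interval of the log2 fold change from -0.18 to 0.23.

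Among 12 tested negative regulators of RAS and partners of Sprouty, 3 rose and 1 fell (median 0.04), 33.3% beside the background of 24.2%. PEBP1, which encodes the RAF kinase inhibitor protein, went down from 112 ± 5.24 to 88.8 ± 3.97 CPM (-0.33 ± 0.049, adjusted p = 4.45e-05 by edgeR). The ubiquitin ligase CBLB (0.31, adjusted p = 0.0044) and the RAS GTPase activator RASAL2 (0.27, adjusted p = 0.00796) rose. CBL rose by 0.18 (adjusted p = 0.0332), but lost the call with DESeq2 (0.0953) and when any library other than shcontrol replicate 3 was left out (0.0697 to 0.13).

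Of 17 tested genes of the JNK, p38 and ERK5 cascades, 2 rose and 2 fell (23.5% beside the background of 24.2%, median 0.08). Of the kinases in these cascades, DUSP8, DUSP10 and DUSP16 act on JNK and p38. MAP3K1 fell from 30.0 ± 1.43 to 23.5 ± 1.47 CPM (adjusted p = 3.19e-04 by edgeR) and the p38 activator MAP2K6 rose from 8.90 ± 0.521 to 11.7 ± 1.06 CPM (adjusted p = 0.0025). MAPK10, which encodes JNK3, fell by 0.74 on the log2 scale from a control level that spread over 3.69, 4.42 and 6.46 CPM (adjusted p = 0.00436). Without shcontrol replicate 3 its log2 fold change was -0.48. MAPK12, a p38 gene, had a log2 fold change of 0.28 (adjusted p = 0.00781, and 0.0556 without shATXN7L3 replicate 3). It overlaps 29.3% of its exonic length with HDAC10 on the same strand, so its value is uncertain.

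Transcripts known to be induced by ERK went both ways, as the 10 feedback genes did. Of 22 tested, 7 rose and 4 fell (median 0.11), 50.0% beside the background of 24.2%. PLAUR, the urokinase receptor, rose from 15.9 ± 1.95 to 27.0 ± 0.951 CPM (0.76 ± 0.075, edgeR adjusted p = 3.28e-07) and the AP-1 subunit FOSL1 from 42.0 ± 2.43 to 60.2 ± 2.69 CPM (0.52 ± 0.055, adjusted p = 7.83e-07). The cytokine LIF (0.43, adjusted p = 1.87e-04) and the matrix protein TNC (0.81, adjusted p = 7.81e-04) rose as well. So did JUNB (0.29, adjusted p = 0.0198), EREG (0.25, adjusted p = 0.00334) and IER3 (0.20, adjusted p = 0.0244), named after their values were seen. Exons of opposite-strand genes overlap 14.2% of JUNB and 26.5% of IER3. Transcription factor genes lay on both sides, FOSL1 and JUNB among those that rose and all 4 that fell. The 4 that fell, also named after their values were seen, are FOS (-0.46 ± 0.11), EGR1 (-0.22 ± 0.052), ETV4 (-0.18 ± 0.048) and JUN (-0.18 ± 0.053). Of these, FOS fell from 6.29 ± 0.517 to 4.56 ± 0.346 CPM (adjusted p = 0.00531) and EGR1 from 37.3 ± 0.596 to 32.0 ± 0.761 CPM (adjusted p = 0.00408). ETV4 (adjusted p = 0.0077) lost the call without shATXN7L3 replicate 1 (0.0568) or 3 (0.0526). JUN (adjusted p = 0.0184) lost it with scaling by library size alone (0.0597) and without any 1 library other than shcontrol replicate 3 (0.06 to 0.0822). ETV5, a close relative of ETV4 also named after its values were seen, had a log2 fold change of 0.12 and did not pass (adjusted p = 0.0625), although it passed when scaled to library size only (0.0109) and without shcontrol replicate 1 (0.035).

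Receptor tyrosine kinases lie upstream of the point where Sprouty and SPRED proteins act. Of 16 listed genes 10 were tested, of which 3 fell and 2 rose (median -0.21), 50.0% beside the background of 24.2%. FGFR4, the main hepatocyte FGF receptor, went down from 49.5 ± 2.65 to 37.1 ± 1.64 CPM (adjusted p = 1.45e-05 by edgeR), IGF1R from 96.4 ± 2.11 to 78.3 ± 0.923 CPM (adjusted p = 4.73e-05) and ERBB2 from 9.88 ± 0.238 to 7.29 ± 0.745 CPM (adjusted p = 0.00174). EGFR rose from 116 ± 11.3 to 136 ± 5.24 CPM (adjusted p = 0.00619). MET, the hepatocyte growth factor receptor, named after its values were seen, was abundant at 6424 ± 57.4 and 6534 ± 147 CPM and did not pass (95% interval of the log2 fold change -0.06 to 0.11).

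**Figure D4:**
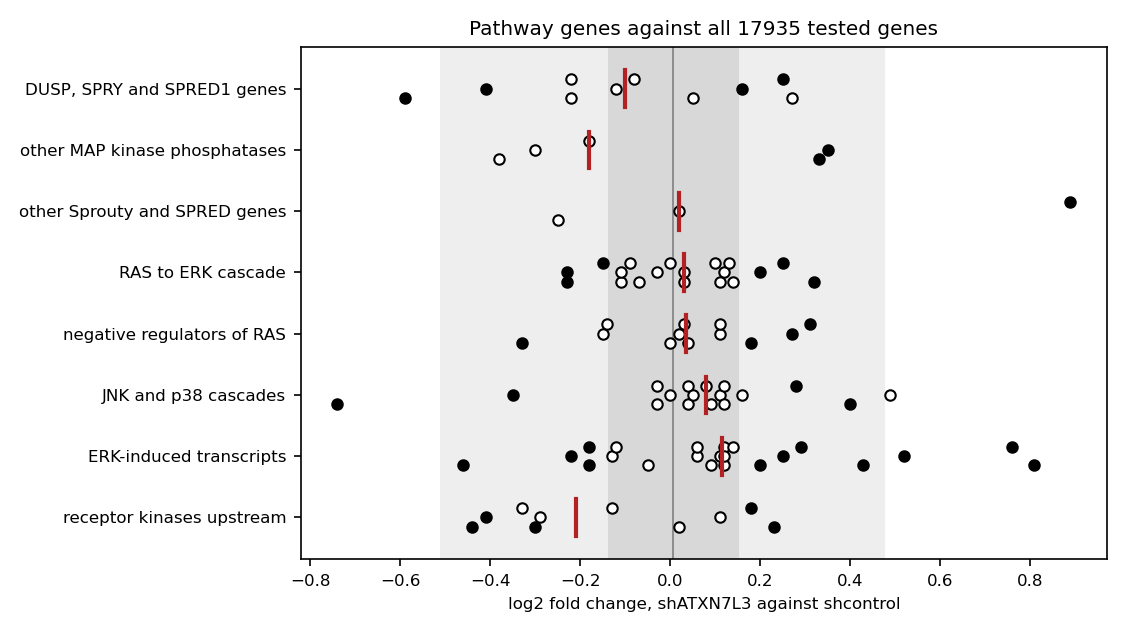
Log2 fold change (x axis) of each tested gene in 8 lists of the pathway. Filled points passed an adjusted p of 0.05, red bars are list medians, and the dark and light bands reach from -0.14 to 0.15 and from -0.51 to 0.48, the quartiles and the 5th and 95th percentiles of all 17935 tested genes. DUSP5 and MAPK10 lie below the light band, and SPRED3, PLAUR, TNC, FOSL1 and MAPK13 (0.49, adjusted p = 0.0912, not past the threshold) lie above it.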

How the data were processed

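The authors deposited raw read counts per gene for the 6 libraries. The submitters' processing notes list the build GRCh38, edgeR 3.12.1, Subread 1.5.1 with featureCounts, STAR 2.5.3a and Trimmomatic 0.36. Not given in the sources used here are the annotation release, whether strand was used, and how multi-mapping reads were counted. The deposited count table also holds exon coordinates and exonic lengths.

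Groups were compared with edgeR 4.0.16 in R 4.3.3 (filterByExpr with minimum count 10 and minimum total 15, TMM scaling, glmQLFit and glmQLFTest with group as the only term, Benjamini-Hochberg adjustment over 17935 genes, threshold 0.05). The common biological coefficient of variation was 4.37%. Standard errors were taken as the log2 fold change divided by the square root of F, and 95% intervals from them with the test's degrees of freedom, which is an approximation. In chi-square per gene, library pairs differed by 3.6 to 6.52 within shcontrol and by 1.59 to 2.18 within shATXN7L3, so the control libraries scattered more. Sampling noise gives about 1, so none was treated as a repeat.

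The alternatives were other scalings, other filters, DESeq2 1.42.0, voom of limma 3.58.1, the replicate number as a block, and each library left out. The 10 genes and the lists were chosen with earlier results of these data known. Named are ATXN7L3, the 10 genes, their family relatives and, from each other list, up to 4 genes past the threshold with the smallest p; marker genes of cell types, MAPK13 and the genes marked so in the text were named after their values were seen. Some genes of the lists are not reported here.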

Additional observations from a re-analysis of the deposited data

How the results depend on the processing

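DUSP5, SPRY4 and ATXN7L3 kept their direction and their call in all 14 alternatives, and so did the count of 2 members lower. With DESeq2, 0 members were called higher (DUSP4 0.15, SPRY1 0.25 on the log2 scale), and the genes called higher over the whole table dropped from 2182 to 1405, with 1603 lower. Scaled to library size only, 2955 genes were called higher and 1604 lower, against 2182 and 2150, and the median of all genes shifted by 0.043. Leaving out 1 library gave 0 to 2 members called higher, DUSP4 at 0.13 to 0.19, SPRY1 at 0.17 to 0.34 and DUSP1 at -0.15 to 0.03. The reversal of DUSP1 (0.03 without shcontrol replicate 3) concerns a gene that did not pass. Other reversals among genes that did not pass when 1 library was left out were SPRY3 (range -0.46 to 0.17), SPRED2 (-0.01 to 0.05) and MAPK3 (-0.07 to 0.07). The cause of these differences was not tested.

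Replicate numbers are shared between the groups, but same-numbered libraries did not deviate together (correlations -0.016, 0.005 and 0.044), so they were not treated as pairs. With the replicate block, 2 members were called higher and 2 lower, as without it. DUSP8, DUSP10, DUSP1 and SPRY2, at 38 to 122 counts per library, had wider intervals than the other members.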
